A study of Homo sapiens with 6 samples.

Results

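The nuclear factor kappa B (NF-κB) genes described here are 36 genes for the transcription factor's subunits, its feedback inhibitors, the chemokines and cytokines it is known to induce, and classical targets. They were taken by gene symbol from the 28395 genes of the deposited table, and all 36 were found, each on 1 row. The cells were A375, an established human melanoma line of wild-type genotype as labelled, grown in medium with serum. For 6 h, 3 libraries were treated with 0.01% olive oil (OLO, the control) and 3 with 0.01% ozonated olive oil (OZO). These agents are the only difference between the groups that the labels give. Only the mean level of each gene over all 6 libraries was used, on the log2 CPM scale (CPM is a count scaled to library size), so every value below pools OLO and OZO and none compares them. The authors' mean carries no spread between libraries, and neighbouring levels can therefore not be said to differ.

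NF-κB is a family of dimeric transcription factors that inhibitors of the IκB family hold in the cytoplasm until a kinase complex marks the inhibitors for destruction. Freed dimers bind κB sites in DNA and switch on inflammatory genes, among them their own inhibitors, which closes a feedback loop. Melanoma cells often carry some constitutive NF-κB activity and can secrete chemokines of this programme.

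The κB sites can be read in the promoters themselves. RefSeq promoter windows on GRCh38.p14, from 250 bases before to 50 bases after the transcription start, were held for 31 of the 36 genes; the other genes are RELB, NFKBIE, CCL2, LIF and CSF1. The κB consensus, a 10-base motif that begins with 3 G and ends with 2 C in its usual orientation, was searched on both strands. The stretches below cover the 110 bases before the start and are shown because they hold the sites of 3 near-identical chemokine genes, of an interleukin, of a further chemokine, of 2 feedback inhibitors and of a subunit gene. Capitals mark the κB match, which runs to 11 bases where matches on both strands overlap, and, in CCL20, also the TATA box.

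CXCL1: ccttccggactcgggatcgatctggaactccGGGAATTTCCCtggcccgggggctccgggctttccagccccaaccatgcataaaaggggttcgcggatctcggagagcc
CXCL2: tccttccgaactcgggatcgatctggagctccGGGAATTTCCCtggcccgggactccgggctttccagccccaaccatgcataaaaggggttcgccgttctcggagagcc
CXCL3: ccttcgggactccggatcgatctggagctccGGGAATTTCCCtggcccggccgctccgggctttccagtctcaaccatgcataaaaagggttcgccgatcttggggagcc
IL6: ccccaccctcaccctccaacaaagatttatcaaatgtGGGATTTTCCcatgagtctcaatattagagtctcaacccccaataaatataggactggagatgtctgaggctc
CCL20: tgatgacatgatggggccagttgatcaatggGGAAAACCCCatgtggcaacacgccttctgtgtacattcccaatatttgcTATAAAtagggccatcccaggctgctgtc
NFKBIA: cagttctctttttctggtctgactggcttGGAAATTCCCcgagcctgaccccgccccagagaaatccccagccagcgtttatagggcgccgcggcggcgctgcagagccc
TNFAIP3: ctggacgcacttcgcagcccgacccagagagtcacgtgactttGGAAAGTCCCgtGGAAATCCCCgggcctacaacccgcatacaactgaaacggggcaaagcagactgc
REL: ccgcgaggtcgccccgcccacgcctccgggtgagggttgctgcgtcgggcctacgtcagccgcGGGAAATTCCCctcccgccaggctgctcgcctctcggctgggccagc

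These stretches lie at chr4:73869283-73869392 (plus strand) for CXCL1, chr4:74099196-74099305 (minus strand) for CXCL2 and chr4:74038690-74038799 (minus strand) for CXCL3. The IL6 stretch is chr7:22727090-22727199 (plus strand) and the CCL20 stretch chr2:227813732-227813841 (plus strand). The inhibitor genes are shown from chr14:35404750-35404859 (minus strand) for NFKBIA and chr6:137867149-137867258 (plus strand) for TNFAIP3, and REL from chr2:60881464-60881573 (plus strand). In CXCL1 and CXCL3 the match starts 79 bases before the transcription start and in CXCL2 78 bases before it. Between CXCL1 and CXCL2, 104 of 109 aligned bases were identical, against 99 of 110 between CXCL1 and CXCL3 and 99 of 108 between CXCL2 and CXCL3.

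A κB match was found in the promoter windows of 16 of the 31 genes (51.6%), against 13.3% of the 27305 genes with a window and 16.8% of those that averaged 10 or more reads in a library. A gene counted if any of its windows matched, which favours genes with several windows. By window, 19 of the 47 windows of the 31 genes held a match, against 11.3% of all 35116 windows. A stricter form of the consensus, with T at positions 6 and 7 from its 5′ end, was held by the same 16 genes but by 2.56% of all genes with a window. By role, the matches were in 3 of 4 subunit genes, 3 of 3 IκB-family genes, 4 of 7 feedback and signalling genes and 4 of 5 chemokine genes. In contrast, 1 of 6 genes of the interleukins and TNF and 1 of 5 effector targets had one. The genes were listed as known NF-κB targets, so these shares describe the list and are not independent evidence about it. In 12 genes a match lay within the 100 bases before a start, and in 4 genes 1 window held matches at more than 1 place. A match is a run of letters and was not tested as a site in these cells.

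**Figure D1:**
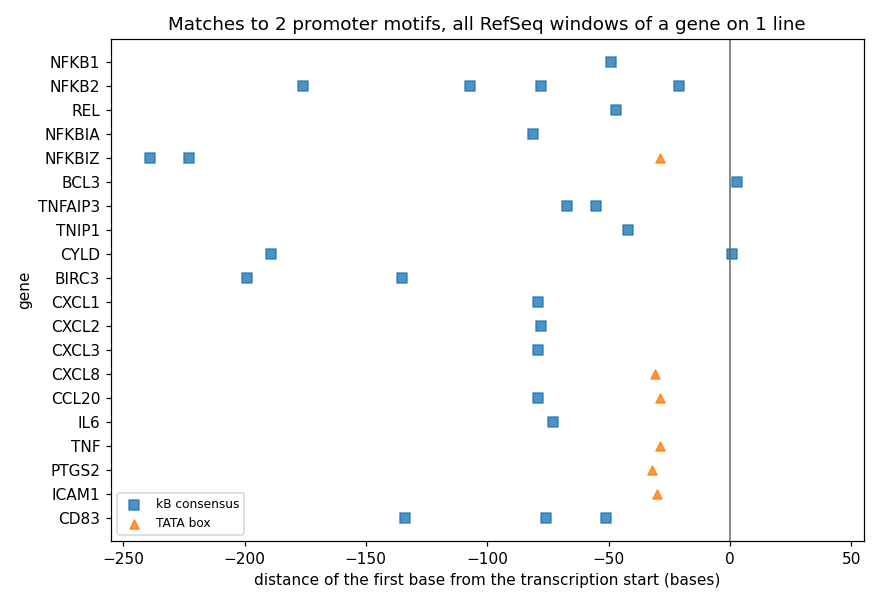
Distance in bases of each κB consensus match (squares) and TATA box match (triangles) from the transcription start, with 1 line per gene and all RefSeq windows of a gene on its line. The matches of CXCL1, CXCL2 and CXCL3 sit 78 or 79 bases before the start, and the 6 TATA boxes lie between 29 and 32 bases before it.

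A TATA box, spelled TATAAA on the strand of the gene and searched in the 50 bases before the start, was found in 6 of the 31 genes (19.4%), against 3.33% of all genes with a window and 2.20% of those with at least 10 reads. By window, 6 of 47 held it, against 2.63% of all windows. The 6 are CXCL8, CCL20, TNF, NFKBIZ, PTGS2 and ICAM1, and CCL20 and NFKBIZ also hold a κB match. The stretches of 4 of them are printed to show the box, in capitals, at nearly the same distance from the start.

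CXCL8: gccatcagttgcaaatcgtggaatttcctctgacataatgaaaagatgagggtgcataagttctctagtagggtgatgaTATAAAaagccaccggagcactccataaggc
TNF: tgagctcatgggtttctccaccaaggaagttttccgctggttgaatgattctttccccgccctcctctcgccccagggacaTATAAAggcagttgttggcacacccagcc
PTGS2: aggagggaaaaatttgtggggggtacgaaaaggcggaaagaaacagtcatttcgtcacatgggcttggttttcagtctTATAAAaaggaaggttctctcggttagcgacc
ICAM1: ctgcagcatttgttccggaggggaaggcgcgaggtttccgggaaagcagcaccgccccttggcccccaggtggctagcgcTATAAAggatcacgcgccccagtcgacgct

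They lie at chr4:73740459-73740568 for CXCL8, chr6:31575455-31575564 for TNF and chr19:10271010-10271119 for ICAM1, all on the plus strand, and at chr1:186680424-186680533 on the minus strand for PTGS2. None of the 4 has a κB match by the letters searched, which says only that these letters are not in the window. The box starts 31 bases before the start in CXCL8, 29 in TNF, 32 in PTGS2 and 30 in ICAM1.

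Turning to the measured levels, 30 of the 36 genes (83.3%) reached 10 reads per library on average, against 48.5% of the 28395 genes of the table. The 36 are all coding genes, whereas the table also holds non-coding ones. Among coding genes with an annotated 3′ UTR, 12403 of 18895 reached 10 reads, which is the closer comparison. The read numbers follow from the lowest deposited mean, which belongs to genes with no read in any library and implies that a library held 18409903 counted fragments as a geometric mean. Each is a geometric mean over the 6 libraries. The median level of the 36 genes was 3.03 log2 CPM, against 1.96 over the 21383 genes with a read and 4.47 over the 13773 genes with at least 10 reads. Of the 36, 23 lay above the first of these medians and 11 above the second. By role, the median per kilobase (kb) of canonical transcript was highest for the subunits (4.02 log2 CPM per kb) and lowest for the interleukins and TNF (−1.12), and the latter role ran from no read to 3.36 log2 CPM per kb.

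**Figure D2:**
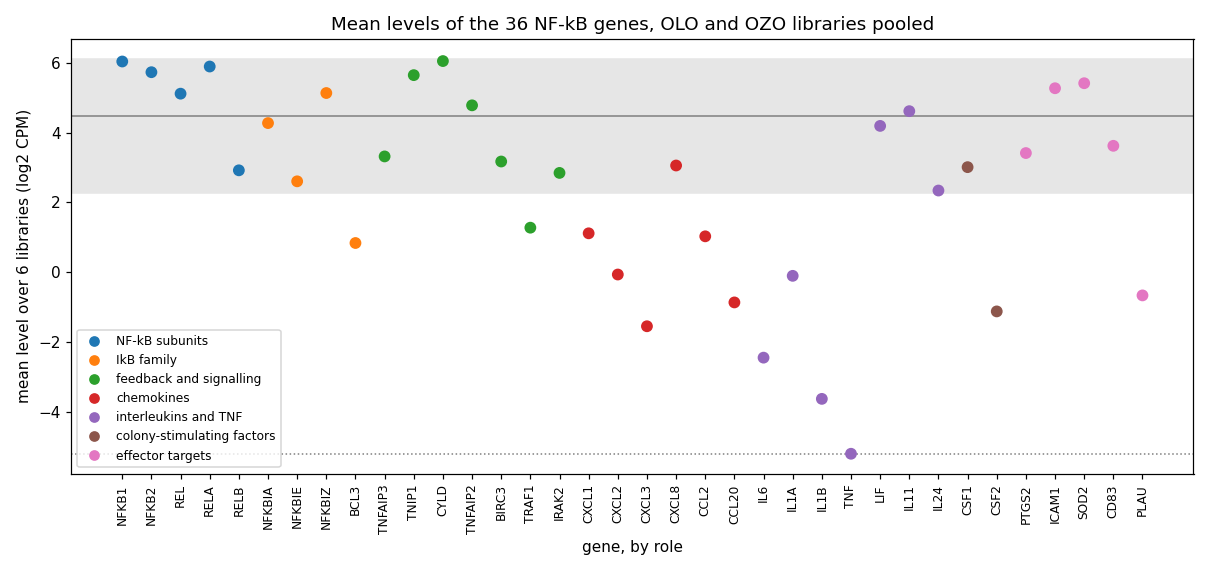
Mean level in log2 CPM over the 6 pooled libraries for each of the 36 genes, ordered and coloured by role. The grey band spans the middle quartiles (2.26 to 6.12) and the solid line the median (4.47) of the 13773 genes with at least 10 reads, and the dotted line at −5.20 is the value of a gene with no read, where TNF sits.

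The 5 subunit genes were all well read. NFKB1, which encodes the p105 precursor of p50, had a mean of 6.04 log2 CPM, or 1208 reads per library. RELA, the gene of the main activating subunit p65, had 5.89 log2 CPM and 1093 reads. NFKB2, whose product p100 is cut to p52 in the non-canonical pathway, had 5.73 log2 CPM and 977 reads. These genes lay between percentiles 80.0 and 83.1 of the genes with a read. REL, which encodes c-Rel, had 5.11 log2 CPM and 637 reads, and RELB, the partner of p52, had 2.92 log2 CPM and 139 reads.

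Unless stated, fold differences among the 36 genes are given per kilobase of the canonical GENCODE transcript, since a longer transcript yields more reads. On that scale RELA had the first rank of the 36 genes with 23.6 CPM per kb, but per kb of exon union ICAM1 stood above it (3.48 against 3.44 log2 CPM per kb). Per kb of canonical transcript NFKB2 (17.6), TNIP1 (17.4) and NFKB1 (16.2) came next. These last 3 are neighbours whose order cannot be told, and NFKB1 ranged from 0.44 to 0.92 times NFKB2 over 3 definitions of length. RELA stood 7.05-fold above RELB and 7.57-fold above REL per kb of canonical transcript. With the other lengths these ratios were 4.31 to 5.57 for RELB and 5.38 to 6.06 for REL. Per gene, without length, RELA exceeded REL only 1.71-fold, and the canonical REL transcript is 11108 bases long. Of the 150-base words of that transcript, 50.7% also occur in transcripts of other genes, and exons of a gene on the same strand cover 33.3% of the REL exon bases, so the REL level is uncertain. No 150-base word of the canonical transcripts of the other 35 genes occurred in an annotated transcript of another gene.

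**Figure D3:**
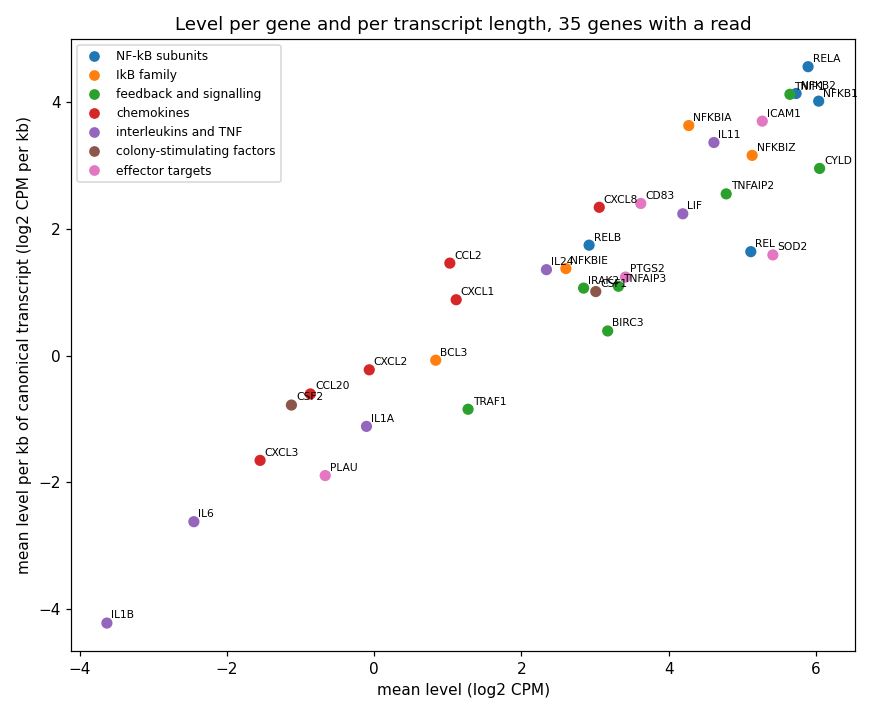
Mean level per kb of canonical transcript (log2 CPM per kb) against mean level per gene (log2 CPM) for the 35 genes with a read, coloured by role. RELA is highest per kb of canonical transcript, though not per kb of exon union, and the long transcripts of REL, SOD2 and CYLD place these genes lower per kb than per gene.

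Among the IκB genes, NFKBIA, which encodes the prototype inhibitor IκBα and is itself an NF-κB target, had 4.27 log2 CPM and 355 reads (12.4 CPM per kb). NFKBIZ, the gene of the nuclear cofactor IκBζ, had 5.13 log2 CPM and 646 reads (8.95 CPM per kb). Which of these genes was higher depended on length, as NFKBIA was 1.39 times NFKBIZ per kb of canonical transcript and 0.84 times with the longest transcript. NFKBIE, encoding IκBε, had 2.60 log2 CPM and 111 reads (2.59 CPM per kb). BCL3, a nuclear family member that binds p50 and p52 dimers, was the lowest with 0.84 log2 CPM and 32.4 reads. NFKBIA exceeded NFKBIE 2.42- to 4.78-fold and BCL3 7.93- to 13.0-fold over the 3 lengths.

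The feedback enzymes and signalling adaptors ranged widely. CYLD, a deubiquitinase that removes activating ubiquitin chains, had the highest mean per gene of all 36, with 6.05 log2 CPM and 1219 reads. TNIP1, a ubiquitin-binding partner of A20, had 5.65 log2 CPM and 921 reads and stood 1.69- to 2.25-fold above CYLD per kb. TNFAIP3, which encodes the ubiquitin-editing enzyme A20, had 3.32 log2 CPM and 183 reads, and TNIP1 stood 5.59- to 9.30-fold above it per kb. TNFAIP2, a TNF-induced gene, had 4.78 log2 CPM and 506 reads. BIRC3, which encodes the ubiquitin ligase cIAP2, had 3.17 log2 CPM and 165 reads. IRAK2, a kinase-like adaptor of interleukin-1 and Toll-like receptors, had 2.84 log2 CPM and 132 reads, and TRAF1, an adaptor of TNF receptors, had 1.28 log2 CPM and 44.1 reads.

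Chemokines were lower per gene, with a median of 0.48 log2 CPM over 6 genes, against 3.32 for the feedback and signalling genes. Chemokine transcripts are short, and the gap was narrower per kb of canonical transcript. On that scale the medians were 0.33 and 1.10 log2 CPM per kb. The 4 CXCL genes attract neutrophils and lie in 1 cluster on chromosome 4, in the order CXCL8 (73740569 to 73743716), CXCL1 (73869393 to 73871308), CXCL3 (74036589 to 74038689) and CXCL2 (74097040 to 74099195). CXCL8, which encodes interleukin-8, had 3.06 log2 CPM and 153 reads. CXCL1 had 1.11 log2 CPM and 39.3 reads, CXCL2 had −0.07 log2 CPM and 17.1 reads, and CXCL3 had −1.55 log2 CPM and 5.79 reads. The promoter stretches of CXCL1, CXCL2 and CXCL3 are nearly identical. Per kb, the mean of CXCL1 stood 2.15- to 2.33-fold above that of CXCL2 and 5.80- to 10.3-fold above that of CXCL3. These ranges reflect only the definitions of length. With 0.5 added to each count, the highest library exceeded the lowest at least 2.96-fold for CXCL1, 2.24-fold for CXCL2 and 2.71-fold for CXCL3. Whether CXCL1 and CXCL2 differ can therefore not be told. The canonical transcripts of these chemokine genes share no 150-base word with an annotated transcript of another gene. Shorter reads and the rest of the genome were not examined. CCL2, a monocyte attractant, had 1.03 log2 CPM and 37.0 reads, and its rank against CXCL1 turned with the length used, from 0.58 to 1.49 times. CCL20, the ligand of CCR6, had −0.87 log2 CPM and 9.60 reads.

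The interleukins and TNF spanned the widest range. IL11, a cytokine that signals through gp130, had 4.61 log2 CPM and 450 reads, and LIF, of the same receptor family, had 4.19 log2 CPM and 336 reads. IL11 stood 1.94- to 2.18-fold above LIF per kb and 3.57- to 4.02-fold above IL24. IL24, of the interleukin-10 family, had 2.34 log2 CPM and 92.7 reads, but 41.6% of its exon bases overlap exons of FCMR on the opposite strand, and the use of strand in the authors' counting is not stated. IL1A, which encodes interleukin-1α, had −0.10 log2 CPM and 16.6 reads. IL6, IL1B and TNF, classical inflammatory cytokine genes, were at or under the floor of 3 reads. IL6 had −2.45 log2 CPM and 2.87 reads, and IL1B had −3.63 log2 CPM and 0.987 reads. TNF had no read in any of the 6 libraries, which allows a level of up to 0.0272 CPM when 3 reads over all libraries are taken as the limit for counting error. IL1A and IL1B are neighbours on chromosome 2 (112773925 to 112784493 and 112829751 to 112836779).

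Of the colony-stimulating factors, CSF1, the macrophage factor, had 3.01 log2 CPM and 148 reads. CSF2, which encodes the granulocyte-macrophage factor, had −1.12 log2 CPM and 7.95 reads, and CSF1 stood 2.64- to 3.46-fold above it per kb, where the short CSF2 transcript of 788 bases narrows the 17.5-fold gap per gene.

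The effector targets were mostly well read. SOD2, the mitochondrial superoxide dismutase, had 5.41 log2 CPM and 785 reads, and ICAM1, an adhesion receptor for leukocytes, had 5.27 log2 CPM and 710 reads. Per kb, ICAM1 stood 4.32- to 4.76-fold above SOD2, whose canonical transcript is 14167 bases long, 13424 of them 3′ UTR. The longest SOD2 transcript is the same and the exon union has 18144 bases. All lengths used for SOD2 were therefore long. A shorter SOD2 transcript, which would raise its level per kb, was not tested, so the order of these genes is uncertain. Exons of other genes on the opposite strand cover 25.4% of the ICAM1 exon bases. CD83, known as a marker of mature dendritic cells, had 3.62 log2 CPM and 226 reads. PTGS2, which encodes cyclooxygenase-2, had 3.41 log2 CPM and 196 reads. PLAU, the urokinase gene, had −0.66 log2 CPM and 11.1 reads, with 31.0% of its exon bases under exons of C10orf55 on the opposite strand.

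For weakly read genes the deposited mean fixes more than a level. Because 0.5 was added to each count before the logarithm, the mean of such a gene gives the product, over the 6 libraries, of 1 plus 2 times the count, and this product is an odd whole number. Its factors limit which counts are possible. For the 12 least-read genes with a read, the product lay within 0.05 of an odd whole number. IL1B had the product 693, so at least 2 of the 6 libraries had no IL1B read and 1 library had at least 5. IL6 had the product 94185, which includes the prime factor 23. At least 1 library therefore had 11 or more IL6 reads, although the mean was 2.87, and the total over the 6 libraries was at least 24 reads.

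PLAU had the product 156934395 with the prime factors 59 and 61, so 1 library had at least 30 PLAU reads against a mean of 11.1. With 0.5 added to each count, the highest PLAU library exceeded the lowest at least 6.78-fold. Of the 1256 genes with products between 100000000 and 10000000000, 3.74% had so high a least possible ratio, and the median of the 1256 was 2.54. The PLAU product lies near the low end of this range. Least possible ratios were higher at lower products, with a median of 3 between 1000000 and 100000000. The share of 3.74% may therefore understate how usual such a ratio is at the PLAU product. For IL6 the least possible ratio was 7.67, a value reached by 18.4% of the 1345 genes with products between 10000 and 1000000. For CXCL3 (2.71), CSF2 (2.56) and CCL20 (1.82) the least possible ratios were reached by 64.8%, 69.5% and 94.5% of the 1246 genes of their range. CXCL1 had a library with at least 81 reads against a mean of 39.3, and TRAF1 one with at least 83 against 44.1. The least possible ratios were 2.96 for CXCL1 and 2.83 for TRAF1. How usual such values are at products of that size was not examined. Which libraries were high, and whether they were OLO or OZO, is not contained in the mean, and differences in library size are part of these ratios.

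**Figure D4:**
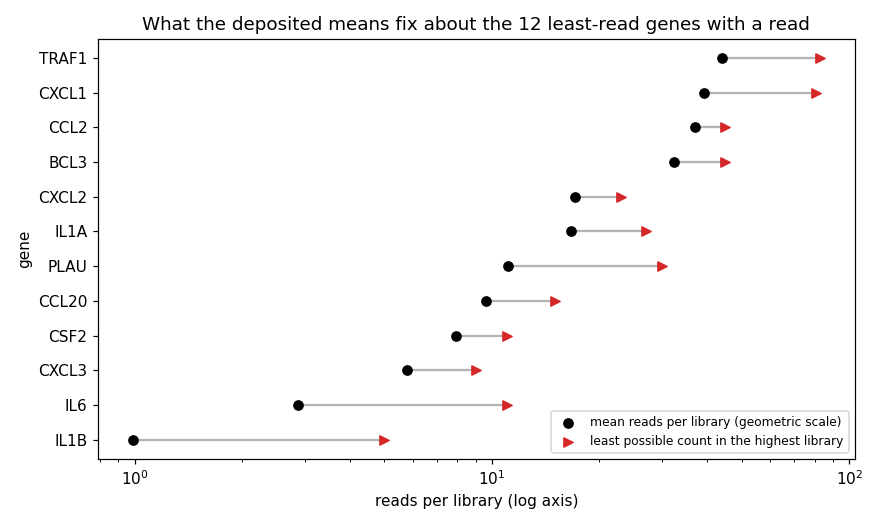
Mean reads per library (black circles, geometric scale) and the least possible count in the highest library (red triangles) for the 12 least-read genes with a read, on a log axis. IL1B, IL6 and PLAU show the widest gaps, from 0.987 to 5, from 2.87 to 11 and from 11.1 to 30 reads.

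Messages of inflammatory cytokines are known for AU-rich elements in the 3′ UTR, which recruit decay factors. The pentamer, ATTTA in DNA letters, occurred in the 3′ UTR of 30 of the 36 canonical transcripts (83.3%), against 75.3% of the 12403 coding genes with at least 10 reads. The longer form, TTATTTATT, occurred in 15 of the 36 (41.7%), against 10.2% of those coding genes. In the 15 genes of chemokines, interleukins, TNF and colony-stimulating factors the median density was 7.19 pentamers per kb and 9 genes held the longer form. In the other 21 genes the median was 2.15 pentamers per kb and 6 held it, and the median of the coding genes was 1.83.

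CSF2 was the densest, with 8 pentamers in 318 bases (25.2 per kb), and IL6 (14.1), CXCL2 (14.0), TNF (11.3), CXCL3 (10.4) and IL1B (9.84 per kb) were the next. Of these 6 genes, CXCL2 alone averaged 10 or more. In contrast, PTGS2 carried 22 pentamers (8.59 per kb) with 196 reads and IL11 carried 6 copies of the longer form with 450 reads. No pentamer was found in RELA, RELB, NFKBIE, BCL3, TNIP1 or TNFAIP2. Message stability was not measured.

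**Figure D5:**
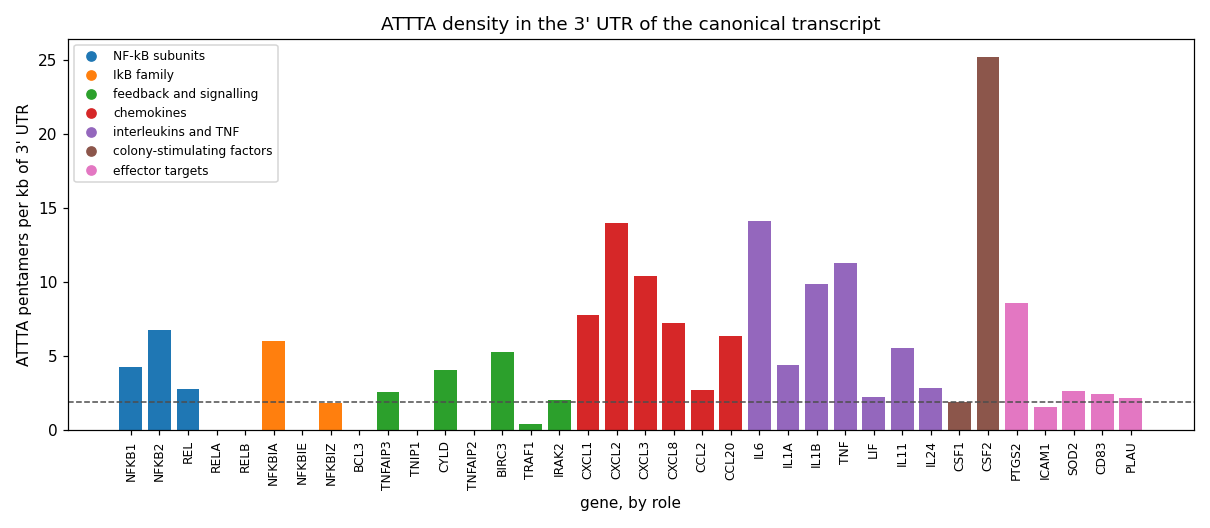
Number of ATTTA pentamers per kb of 3′ UTR in the canonical transcript of each of the 36 genes, as bars coloured by role. The dashed line is the median of 12403 coding genes with at least 10 reads (1.83 per kb), and CSF2 at 25.2, IL6 at 14.1 and CXCL2 at 14.0 per kb stand highest.

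The machinery upstream of these genes was read throughout, except for TLR2 among the receptors. All 15 listed adaptors and kinases and all 8 other inhibitors and ubiquitin editors had at least 10 reads, as did 8 of 9 receptors. Among adaptors and kinases, IRAK1 (8.04 log2 CPM) and the IκB kinase gene CHUK (7.19) had the highest means, and TRADD (0.64) and IKBKG (2.98) the lowest. Among receptors, the TNF receptor gene TNFRSF1A had 6.13 log2 CPM and the lipopolysaccharide receptor gene TLR4 had 5.85, whereas TNFRSF1B had 0.29 and TLR2 −2.48. BIRC2 (7.46) and OTULIN (6.46) were highest among the other inhibitors and editors, and SHARPIN (2.61) and RNF31 (4.15) lowest. Sequence shared with other genes was examined only for the 36 genes and not for this machinery, so a low level here can also reflect reads that could not be placed.

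The label of a melanoma line was checked against marker genes. Of 11 melanocyte and melanoma markers 8 had at least 10 reads, with SOX10 at 919 and MITF at 499 reads. Among coding genes with an annotated 3′ UTR, 12403 of 18895 reached 10 reads, so this count alone says little about the label. The pigment genes were low. MLANA had 36.6 reads and TYRP1 −0.68 log2 CPM, PMEL (5.75 reads) and DCT (4.74) fell below 10 reads, and TYR had none. All 5 markers of dedifferentiated melanoma were read, with AXL at 4915 reads. Of 6 leukocyte and macrophage markers 3 had at least 10 reads, CD68 with 603, LYZ with 79.9 and CD14 with 14.7, while the defining leukocyte genes were at or near the floor, PTPRC with 1.07 reads, CD3E at −4.94 log2 CPM and MS4A1 with no read. Keratinocyte, fibroblast and endothelial lists had 1 gene each of 3 with at least 10 reads, namely KRT14 (77.5), COL1A1 (22.3) and PECAM1 (19.5). KRT14 thus had more reads than S100B, S100A1 and the melanocyte markers below them.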

How the data were processed

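RNA was measured by RNA-seq in 3 OLO and 3 OZO libraries of A375 cells. The authors aligned reads to hg38 with HISAT2 2.1.0, counted them per gene with featureCounts 2.1.1 and used limma-voom 3.58.1, per their methods and the submitters' processing notes. The log2 values used here are the authors' deposited mean log2 CPM over all libraries, with 0.5 added to each count. Scaling factors, filters and the use of strand are not given in the sources used here. The deposited table also holds the authors' own comparison of OZO with OLO (fold change, t, p-value, adjusted p-value and B), which was not used. No value per library or group was analysed, so no test was made.

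Implied reads, and their factor limits for products up to 1000000000000, were computed from the lowest mean with sympy and tested on simulated data. Transcript lengths, 3′ UTRs and exon overlaps came from GENCODE 44, matched by Ensembl identifier for 25497 genes, and coordinates and promoters from RefSeq on GRCh38.p14, the assembly that hg38 names. The depth of each library is unknown here. Members and gene lists were chosen with earlier results of these data known, all 36 members are named, and of each other pathway list the 2 highest and 2 lowest. Alternatives were other read minimums, reference gene sets, lengths, motif forms and windows.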

Additional observations from a re-analysis of the deposited data

How the results depend on the processing

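No paired analysis was possible because the values used pool all libraries. For the same reason the comparison of OZO with OLO, the leaving out of replicates, other scalings and count models were not run. The number of genes above the median, 23 of 36 against all genes with a read, was 11 against genes with at least 10 reads and 8 per kb of canonical transcript against coding genes with at least 10 reads. Both changes follow from the higher reference median. It was between 22 and 32 under the other 5 alternatives. The median level, 3.03 log2 CPM per gene, was 1.04, 1.21 and 1.37 log2 CPM per kb of exon union, longest transcript and canonical transcript, which is another quantity. Both settings with the canonical transcript were added after seeing the data. The counts with at least 10 reads (30, and 27 to 33 at other minimums), with no read (1), with a κB match (16, and 15 to 17) and with a TATA box (6, and 8 anywhere in the window) stayed within 1.5 times. The unknown depth and spread of single libraries limit every level.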

Other observations

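Receptors of the secreted factors and further NF-κB targets were read over the same pooled libraries. Of 14 receptor genes 8 had at least 10 reads. IL6ST, which encodes the gp130 chain shared by IL6, LIF and IL11, had 8.67 log2 CPM, and PLAUR, the urokinase receptor gene, had 6.07. LIFR had 5.30 and IL6R 4.40 log2 CPM, and IL11RA had 0.86. The lowest were CXCR1 and CCR2, with no read in any library. CXCR2, the receptor of the CXCL chemokines above, had 0.404 reads, CCR6 1.58, and CSF1R 14.2. CSF2RA and CSF2RB had −4.94 log2 CPM each, near the value of −5.20 for no read. Sequence shared with other genes was not examined for these receptors, so a low value need not mean that the gene is silent. Apart from the 2 highest and 2 lowest, these receptors were chosen for mention after their values were seen.

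Of 14 other targets 5 had at least 10 reads. GADD45B had 5.13 and the anti-apoptotic gene BCL2L1 5.09 log2 CPM, the highest means of that list. VCAM1, CCL5 and CXCL6 had no read in any library.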
